A study of Mus musculus with 30 samples.

Results

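Gemcitabine given alone was compared with vehicle in whole mammary tumours of mice, using the 10 samples that the labels name as control and as gemcitabine treated, out of 30 samples in 6 groups of 5. The tumours arose in mammary tissue of MMTV-PyVT animals, in which a viral promoter active in mammary epithelium drives the polyoma middle T oncogene, on the FVB/N background. In the labels the strain is FVB/N-Tg(MMTV-PyVT)634Mul/J, the genotype WT and the tissue Breast. All 30 animals carried the transgene. Vehicle animals received no active drug, and gemcitabine animals received 64 mg/kg per 7 days by intraperitoneal injection, with tumours taken at 72 h per the labels. The methods of the study name a different dose and duration, so both are given here as the labels have them. The labels do not give the age of the animals. The effect of gemcitabine was also taken from 10 other samples, in which KCL-HO-1i, an inhibitor of the heme-degrading enzyme HO-1, was given daily at 25 µmol/kg with or without gemcitabine. Each sample has its own identifier in the labels. The number before the dot in it is here called the mouse code, a name the labels do not give, and its meaning is not stated. Samples that share a mouse code differ in the rest of the identifier. Of the gemcitabine samples 4 of 5 (replicates 1 to 4) and of the vehicle samples 0 of 5 carry code 76, so that code and treatment cannot be told apart.

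Gemcitabine is a deoxycytidine analogue. It enters cells through nucleoside transporters, is phosphorylated first by deoxycytidine kinase, and in its diphosphate and triphosphate forms inhibits ribonucleotide reductase and is built into DNA, which stalls replication forks. Cytidine deaminase inactivates it. Dividing cells are the most sensitive, and among normal tissues the drug acts on the dividing precursors of blood cells in the bone marrow.

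The 10 libraries held between 10067698 and 13482304 counts. Depth, share of mitochondrial counts and number of genes detected did not separate the groups by the exact permutation test (two-sided, 5 against 5): the mitochondrial share was 2.28% ± 0.417 (SD, n = 5) with vehicle and 2.21% ± 0.449 (SD, n = 5) with gemcitabine, exact p = 0.77. The genes detected numbered 14830 ± 125 (SD, n = 5) and 15080 ± 229 (SD, n = 5), exact p = 0.0714. The smallest exact p that 5 against 5 allows is 0.00794. Markers of luminal mammary epithelium were present in every library: Krt8, a keratin of simple epithelia, lay between 1052 and 1611 CPM and Epcam, an epithelial adhesion protein, between 886 and 1502 CPM. CPM here are counts scaled to a common library size by TMM, and they compare 1 gene across libraries, not 1 gene with another. The first principal component of the 10 libraries, with 31.7% of the variance, set vehicle 3 and gemcitabine 3 apart, with keratin genes such as Krt6a and Krt16 at its high end. The second, with 17.9%, set gemcitabine 5 (-64) and gemcitabine 1 (56.2) at opposite ends, with the other libraries between them.

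Across 13663 tested genes, none passed an adjusted p of 0.05 (0% of the genes; edgeR's quasi-likelihood test with Benjamini-Hochberg adjustment; smallest adjusted p = 0.941). DESeq2 and limma-voom also called 0 genes. At an unadjusted p under 0.05 there were 280 genes higher with gemcitabine (2.05%) and 243 lower (1.78%), together 523. At the limits the study used, a log2 fold change past 0.6 with an unadjusted p under 0.05, there were 97 higher (0.71%) and 69 lower (0.505%). In 27 genes (0.198%) every gemcitabine library lay above every vehicle library, and in 22 genes (0.161%) every one lay below. The median log2 fold change over all tested genes was 0.03. The gene groups below are therefore described by their values in each library; none of their members passed the adjusted test in the comparison of all 10 libraries.

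The globin genes Hba-a1, Hbb-bs and Hbb-bt of red blood cells lay below the vehicle libraries in 4 of 5 gemcitabine libraries and above them or among them in the other. Hemoglobin is built from alpha chains (Hba-a1, Hba-a2) and beta chains (Hbb-bs, Hbb-bt), and Alas2 makes the first enzyme of heme synthesis in erythroid cells. Young red cells, the reticulocytes, still carry these messengers, so blood within a tumour brings them into its RNA. The promoters of the globin genes are shown because Hba-a1, Hbb-bs and Hbb-bt were high or low in the same libraries. These are RefSeq stretches from position -120 to -1 before the start site (GRCm38.p6), read 5′ to 3′ on the strand of the gene, with CCAAT and its reverse ATTGG in capitals.
Hba-a1: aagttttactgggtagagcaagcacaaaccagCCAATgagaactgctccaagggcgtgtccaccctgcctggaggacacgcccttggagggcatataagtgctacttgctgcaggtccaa
Hba-a2: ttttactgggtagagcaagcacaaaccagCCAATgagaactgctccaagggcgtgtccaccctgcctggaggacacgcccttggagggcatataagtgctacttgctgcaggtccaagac
Hbb-bs: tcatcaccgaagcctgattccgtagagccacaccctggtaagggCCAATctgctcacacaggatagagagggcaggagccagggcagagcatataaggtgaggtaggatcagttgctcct
Hbb-bt: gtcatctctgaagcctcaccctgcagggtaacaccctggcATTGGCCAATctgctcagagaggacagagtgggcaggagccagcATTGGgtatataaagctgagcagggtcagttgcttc
The stretches are chr11:32283552-32283671 (plus strand) for Hba-a1, and for the others Hba-a2 at chr11:32296372-32296491 (plus), Hbb-bs at chr7:103827929-103828048 (minus) and Hbb-bt at chr7:103813924-103814043 (minus). CCAAT, searched on both strands, was found in 37.4% of 32851 RefSeq promoter windows of 300 bases, and in the window of each of the 4 globin genes. The window of Alas2 did not hold it. Of the other motifs searched, AGATAA (11.2% of windows) was found in Hbb-bs and Alas2 only. CCACCC (31.5% of windows) was found in Hba-a1, Hba-a2, Hbb-bt and Alas2 but not in Hbb-bs, and CACGTG in none of them. In the coding transcripts of the annotation, 91% of the 31-base stretches of Hba-a2 also occur in Hba-a1, and 59.4% of those of Hbb-bt occur in Hbb-bs. The counts of each pair are therefore uncertain as to which copy they belong to, whereas alpha and beta chains share 0 such stretches.

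Summed over the erythroid genes, vehicle libraries 1 to 5 held 278, 296, 453, 453 and 82.4 CPM. Gemcitabine libraries 1 to 4 held 4.41, 13.9, 7.05 and 4.58 CPM, and gemcitabine 5 held 702 CPM. Thus 4 of 5 gemcitabine libraries lay below every vehicle library and 1 lay above every one. The sum does not depend on how reads were split between copies.

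Hba-a1 was at 165, 161, 225, 253 and 47.8 CPM in vehicle 1 to 5 and at 3.18, 9.52, 4.12, 1.09 and 373 CPM in gemcitabine 1 to 5. Hbb-bs was at 95.1, 121, 182, 164 and 30.4 CPM with vehicle and at 1.23, 3.26, 2.56, 0.931 and 262 CPM with gemcitabine. For both, gemcitabine 5 was the highest and gemcitabine 1 to 4 the lowest of the 10 libraries. Hbb-bt had 111, 136, 176, 180 and 41 reads in vehicle 1 to 5, against 0, 2, 0, 0 and 131 reads in gemcitabine 1 to 5. Alas2 overlapped more between the groups, with 3.48, 3.34, 6.24, 6.62 and 1.26 CPM with vehicle and 0, 0.918, 0.275, 2.02 and 4.97 CPM with gemcitabine. Hba-a2 had 41, 0, 271, 160 and 0 reads in vehicle 1 to 5, against 0, 0, 0, 6 and 493 reads in gemcitabine 1 to 5. Its log2 fold change of 0.257 was the only positive value among the 5 erythroid genes tested. Slc4a1, the anion exchanger of the red cell membrane, had at most 5 reads in any of the 10 libraries and was not tested.

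**Figure D1:**
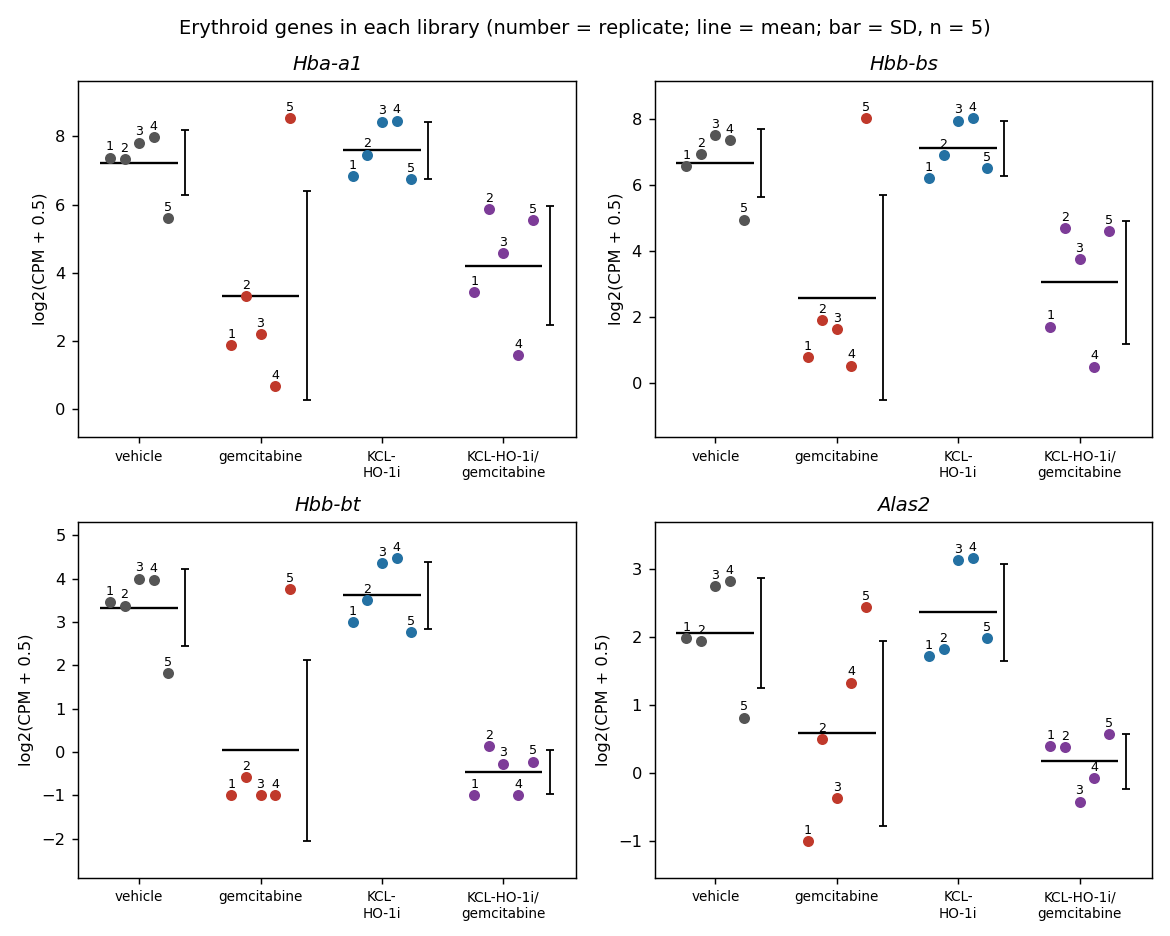
Level of 4 erythroid genes in each library, as log2(CPM + 0.5), in the 2 vehicle-background groups and the 2 groups given KCL-HO-1i; numbers are replicates, lines are means and bars are SDs (n = 5). For Hba-a1, gemcitabine replicates 1 to 4 (1.09 to 9.52 CPM) lie below all vehicle replicates, gemcitabine 5 (373 CPM) lies above them, and all 5 KCL-HO-1i/gemcitabine replicates lie below all KCL-HO-1i replicates.

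In edgeR's test over the 10 libraries no erythroid gene had an unadjusted p under 0.05. The log2 fold change of Hba-a1 was -1.13 ± 1.04 (SE, n = 5 per group; unadjusted p = 0.286, edgeR's quasi-likelihood test), that of Hbb-bt was -2.05 ± 1.18 (SE; unadjusted p = 0.0947) and that of Alas2 was -1.36 ± 0.75 (SE; unadjusted p = 0.0816). Other fits to the same libraries moved the globin values. In limma-voom, which gives libraries that stand apart less weight, the log2 fold changes of Hba-a1, Hbb-bs and Hbb-bt were -3.18, -3.62 and -4.48, with unadjusted p = 0.0029, 0.00301 and 0.00349 and a limma adjusted p of 0.954 for each. With mouse code as a covariate in edgeR they were -4.81, -4.63 and -7.34. Unadjusted p was 0.0072, 0.00517 and 0.0068 in edgeR's quasi-likelihood test, with an adjusted p of 1 for each. In that fit the contrast rests on vehicle 1, the only vehicle library whose code (84) occurs in another group. Gemcitabine enters it only through code 76, which the 5-FU group shares. Without gemcitabine 5, the 3 globin genes Hba-a1, Hbb-bs and Hbb-bt had log2 fold changes of -5.25, -5.89 and -7.70, each with an adjusted p of 0.0384 in edgeR's quasi-likelihood test, and were the only genes so called. With vehicle 3 left out as well, these values were -5.13, -5.69 and -7.55, with edgeR adjusted p = 0.056, 0.056 and 0.0598. Every library was left out in turn, and the fit without gemcitabine 5 is given here because its globin values stand apart, so the adjusted values without it are a description. It is also the 1 gemcitabine library with a mouse code other than 76. The 3 libraries of the 5-FU group that carry code 76 held 59.2, 147 and 104 CPM of Hba-a1.

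The 10 libraries with KCL-HO-1i give values that the comparison with vehicle does not share. Hba-a1 was at 114, 176, 345, 352 and 107 CPM with KCL-HO-1i alone, and at 10.3, 58, 23.5, 2.49 and 46.4 CPM with KCL-HO-1i/gemcitabine. Hba-a2 overlapped, with 0, 0, 286, 291 and 0 reads with KCL-HO-1i alone and 0, 43, 0, 0 and 0 reads with KCL-HO-1i/gemcitabine. The groups did not overlap for Hba-a1, Hbb-bs, Hbb-bt and Alas2, which is 4 of 5 erythroid genes tested, against 0.395% of all tested genes that lay lower in every combined library. Their log2 fold changes were -2.96 ± 1.10, -3.60 ± 1.2, -5.70 ± 1.47 and -2.96 ± 0.80 (SE, n = 5 per group), with unadjusted p = 0.0124, 0.00593, 0.000613 and 0.00101 in edgeR's quasi-likelihood test and adjusted p of 1 after rounding. The difference of the gemcitabine effect between both backgrounds was not past the threshold for any of them (unadjusted p from 0.0515 for Hbb-bt to 0.221 for Hba-a1). Among other cells of blood and its vessels, the summed neutrophil list had medians of 5630 CPM with vehicle and 5780 CPM with gemcitabine. This sum did not track its member S100a8. Vehicle 3 and gemcitabine 3 had the most S100a8 reads (776 and 1328) but the lowest sums (3540 and 3840 CPM). Whether the sum follows the number of neutrophils was not tested. The summed markers of blood vessel endothelium had medians of 147 and 159 CPM. In bulk tissue, fewer cells of a type and less RNA per cell cannot be told apart.

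Of the 39 gene lists, that of the circadian clock had the most members that were lower at an unadjusted p under 0.05. Its core is a loop in which CLOCK and BMAL1 bind E-box sequences and switch on Per and Cry genes, whose proteins then shut the pair off, and it drives output factors such as Dbp and Tef. Several of these genes, Per1 above all, also respond to glucocorticoids, and clock genes vary with the time of day at which tissue is taken. The time of day of collection is not given in the sources used here. Of 17 clock genes tested, 6 were lower at an unadjusted p under 0.05 (1.78% of all tested genes were) and 0 higher, with a median log2 fold change of -0.19 over the list. The E-box CACGTG stands in the RefSeq promoters of 2 of the 6, Per1 and Tef, which are shown with it in capitals (GRCm38.p6, position -180 to -61 from the start site, 5′ to 3′, plus strand). Per1 and Tef have 2 entries each, of which 1 of Per1 and both of Tef hold the motif.
Per1: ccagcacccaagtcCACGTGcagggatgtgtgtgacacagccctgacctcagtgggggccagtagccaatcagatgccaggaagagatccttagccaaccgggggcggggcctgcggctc
Tef, upstream promoter: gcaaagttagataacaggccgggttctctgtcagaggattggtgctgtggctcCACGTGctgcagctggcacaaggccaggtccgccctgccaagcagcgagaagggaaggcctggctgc
Tef, downstream promoter: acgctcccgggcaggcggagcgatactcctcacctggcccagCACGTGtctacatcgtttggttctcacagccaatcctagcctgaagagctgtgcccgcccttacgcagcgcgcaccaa
These stretches are chr11:69098769-69098888 for Per1, and chr15:81802493-81802612 and chr15:81811234-81811353 for Tef. The motif starts at position -166 in Per1 and at -127 and -138 in the promoters of Tef. It reads the same on both strands, and 7.15% of the RefSeq promoter windows hold it. The windows of Per3, Dbp and Nr1d2 hold no such letters, and Per2 had no entry. Outside the 6, the window of Ciart, another clock gene searched, holds the motif at -116, -58 and -44. Ciart had 13, 4, 43, 5 and 16 reads in vehicle 1 to 5 and 44, 11, 36, 14 and 3 reads in gemcitabine 1 to 5. The motif was thus not confined to the lower genes.

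Per1, a repressor of the clock, was at 140, 33.6, 36.8, 109 and 126 CPM in vehicle 1 to 5 and at 43.9, 33.6, 31.3, 52.6 and 28.5 CPM in gemcitabine 1 to 5. Per2, its partner, was at 39.3, 18, 9.76, 46.6 and 31.8 CPM with vehicle and 8.65, 16.2, 7.96, 16 and 11.6 CPM with gemcitabine. Tef, a factor that carries the rhythm to other genes, was at 66.6, 31.1, 27.4, 82.7 and 81.2 CPM with vehicle and 24.5, 37.6, 14, 26.2 and 30.3 CPM with gemcitabine. In all 3 genes vehicle 1, 4 and 5 were the highest of the 10 libraries, while vehicle 2 and 3, which share mouse code 63, lay within or next to the gemcitabine range. The log2 fold changes were -1.23 ± 0.38 for Per1 (SE, n = 5 per group), -1.27 ± 0.35 for Per2 and -1.12 ± 0.34 for Tef, with unadjusted p = 0.00354, 0.00131 and 0.00254 in edgeR's quasi-likelihood test. Dbp, Per3 and Nr1d2 had log2 fold changes of -1.34, -0.86 and -0.49.

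A pair of genes outside the list, chosen after their values were seen, had the same profile. Zbtb16, a transcription factor that glucocorticoids induce, was at 16.2, 5.74, 4.40, 20.1 and 18.7 CPM with vehicle and at 1.39, 1.59, 1.19, 1.94 and 4.57 CPM with gemcitabine, and its groups overlapped by the narrow margin of vehicle 3 and gemcitabine 5. Its log2 fold change of -2.61 ± 0.70 (SE, n = 5 per group) had an unadjusted p of 0.000888 and an adjusted p of 0.941 in edgeR's quasi-likelihood test. Tsc22d3, known as GILZ, a mediator of glucocorticoid action, was at 140, 49, 57.7, 92.9 and 108 CPM with vehicle and at 20.8, 45.2, 68.5, 38.6 and 44.6 CPM with gemcitabine. Fkbp5, another glucocorticoid-induced gene, overlapped more widely (log2 fold change -0.39, unadjusted p = 0.118 in edgeR's test).

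**Figure D2:**
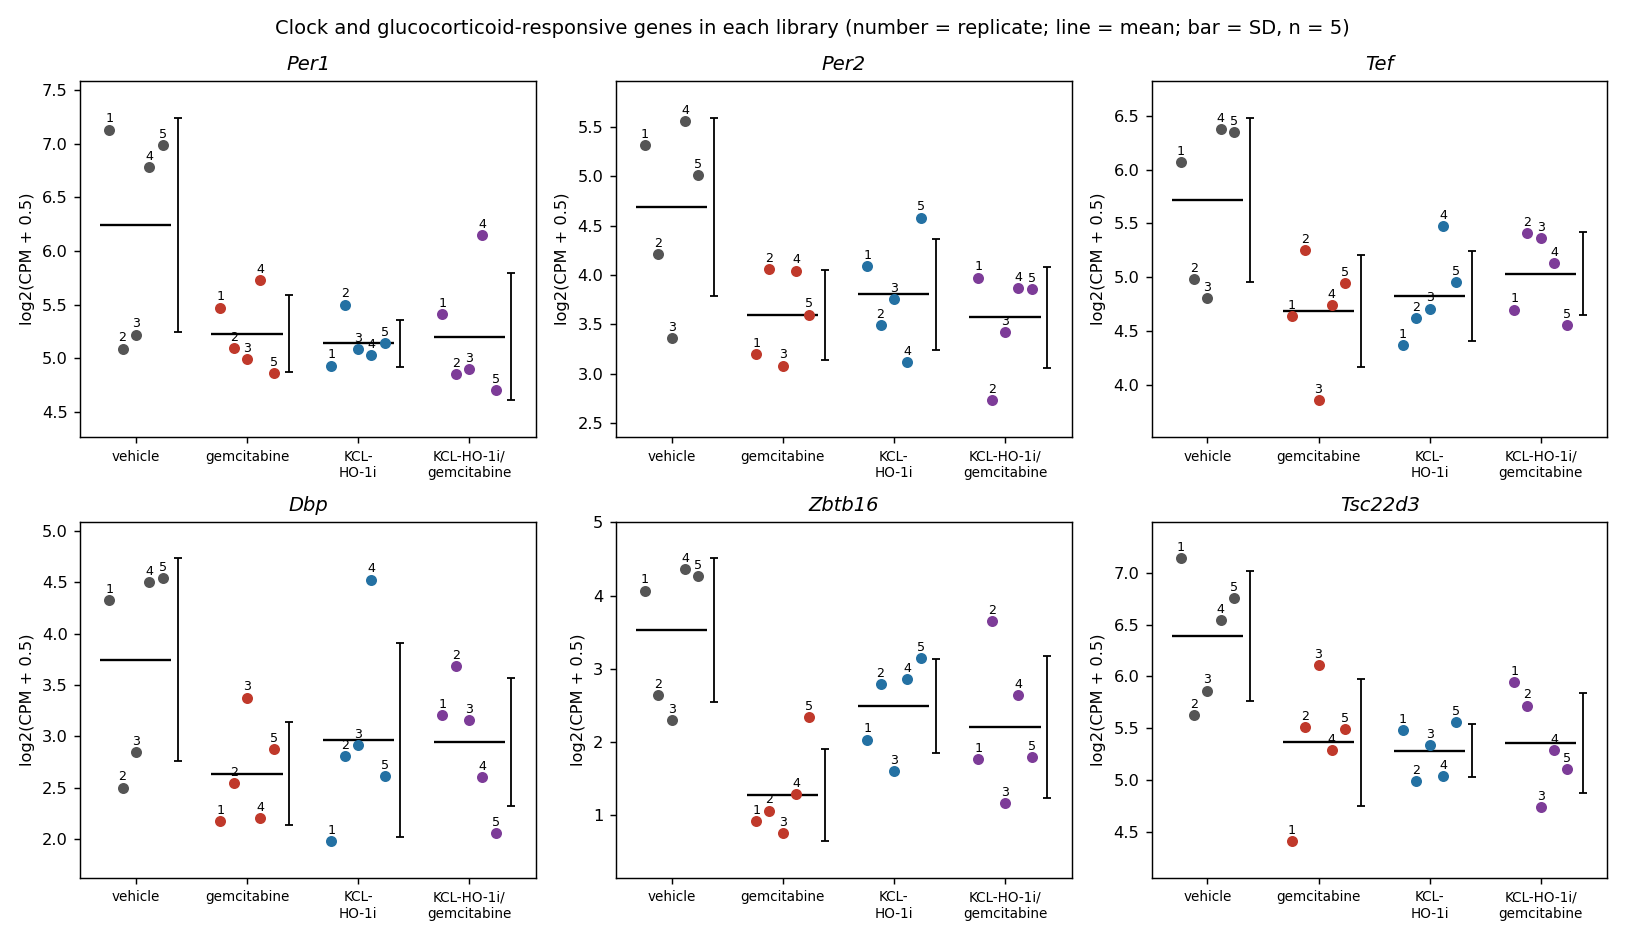
Level of 4 clock genes and of Zbtb16 and Tsc22d3 in each library, as log2(CPM + 0.5), in the same 4 groups; numbers are replicates, lines are means and bars are SDs (n = 5). Vehicle 1, 4 and 5 stand above the other libraries for Per1 (109 to 140 CPM), while vehicle 2 and 3 (33.6 and 36.8 CPM) sit among the gemcitabine libraries.

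With KCL-HO-1i in both groups, 10 of the 17 clock genes had a negative log2 fold change and 0 had an unadjusted p under 0.05. Per2, Per3 and Dbp were at -0.27, -0.43 and -0.21 on the log2 scale there, below 0 as against vehicle. The log2 fold change of Per1 there was 0.16 ± 0.38, that of Tef 0.20 ± 0.33 and that of Zbtb16 -0.12 ± 0.66 (SE, n = 5 per group). The difference between backgrounds had an unadjusted p of 0.016 for Per1, 0.00955 for Tef, 0.014 for Zbtb16 and 0.0138 for Tsc22d3 in edgeR's test, where 1.34% of all genes had an unadjusted p under 0.05. The adjusted p of each was 1 after rounding. Per1 and Tef were the 2 of 17 clock genes past that threshold for the difference. All 5 KCL-HO-1i libraries held between 30 and 44.8 CPM of Per1, near vehicle 2 and 3. The count of 6 lower clock genes was 7 without vehicle 3 and gemcitabine 5 (1.1% of all genes were lower in that fit). It was 3 with mouse code in the fit (0.9%), which rests on vehicle 1 alone among the vehicle libraries.

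The genes that carry, activate, inactivate or are hit by gemcitabine lay close to their vehicle levels. Of 22 such genes, 21 were tested, 15 had a positive and 6 a negative log2 fold change, 2 were higher at an unadjusted p under 0.05 (2.05% of all genes were) and 0 lower, and the median was 0.16. Among the transporters, Slc29a1, the main equilibrative nucleoside carrier, was at 447, 232, 129, 350 and 424 CPM with vehicle and at 422, 471, 240, 372 and 260 CPM with gemcitabine. Slc29a2, its sister carrier, was at 6.86, 5.59, 8.09, 5.09 and 4.17 CPM with vehicle and at 11, 5.84, 12.4, 6.75 and 6.56 CPM with gemcitabine (log2 fold change 0.52 ± 0.23, SE, n = 5 per group; unadjusted p = 0.0366 in edgeR's test). The latter was highest in gemcitabine 1 and 3, and the groups overlapped. The concentrative carrier Slc28a3 had a log2 fold change of -0.32, and Slc28a1 had at most 5 reads in a library.

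Dck, the kinase that performs the first and limiting phosphorylation, was at 36.4, 51.9, 49.2, 42.7 and 59.8 CPM with vehicle and at 57.4, 54.1, 45.8, 47.6 and 47.8 CPM with gemcitabine. The means of 48 ± 8.93 and 50.5 ± 4.96 CPM (SD, n = 5) had an exact permutation p of 0.54 (two-sided; adjusted over 10 genes 0.6). Nme2, a nucleoside diphosphate kinase, was at 293, 261, 205, 219 and 212 CPM with vehicle and at 351, 267, 464, 218 and 259 CPM with gemcitabine, with a log2 fold change of 0.39 and an unadjusted p of 0.0268 in edgeR's test. Its neighbour and close homologue Nme1 had a log2 fold change of 0.33 (unadjusted p = 0.0634). Cda, the deaminase that inactivates the drug, was at 8.27, 4.80, 4.92, 2.12 and 6.40 CPM with vehicle and at 15.5, 5.34, 11.5, 1.63 and 4.07 CPM with gemcitabine, again highest in gemcitabine 1 and 3.

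Among the targets, the large subunit of ribonucleotide reductase, Rrm1, was at 117, 147, 144, 121 and 177 CPM with vehicle and at 203, 146, 276, 106 and 121 CPM with gemcitabine. The small subunit Rrm2 was at 65, 88.5, 140, 62.8 and 99.7 CPM with vehicle and at 106, 95.4, 226, 74 and 103 CPM with gemcitabine (exact permutation p = 0.357, two-sided). For both, gemcitabine 3 was the highest of the 10 libraries. The efflux pumps Abcc5 and Abcc4 had log2 fold changes of -0.23 and 1.14, the latter at 0 to 1.24 CPM with vehicle and 0.735 to 3.18 CPM with gemcitabine. In the KCL-HO-1i background 0 of the 21 genes had an unadjusted p under 0.05 (1.2% of all genes were higher and 1.46% lower), and the median was 0.02.

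**Figure D3:**
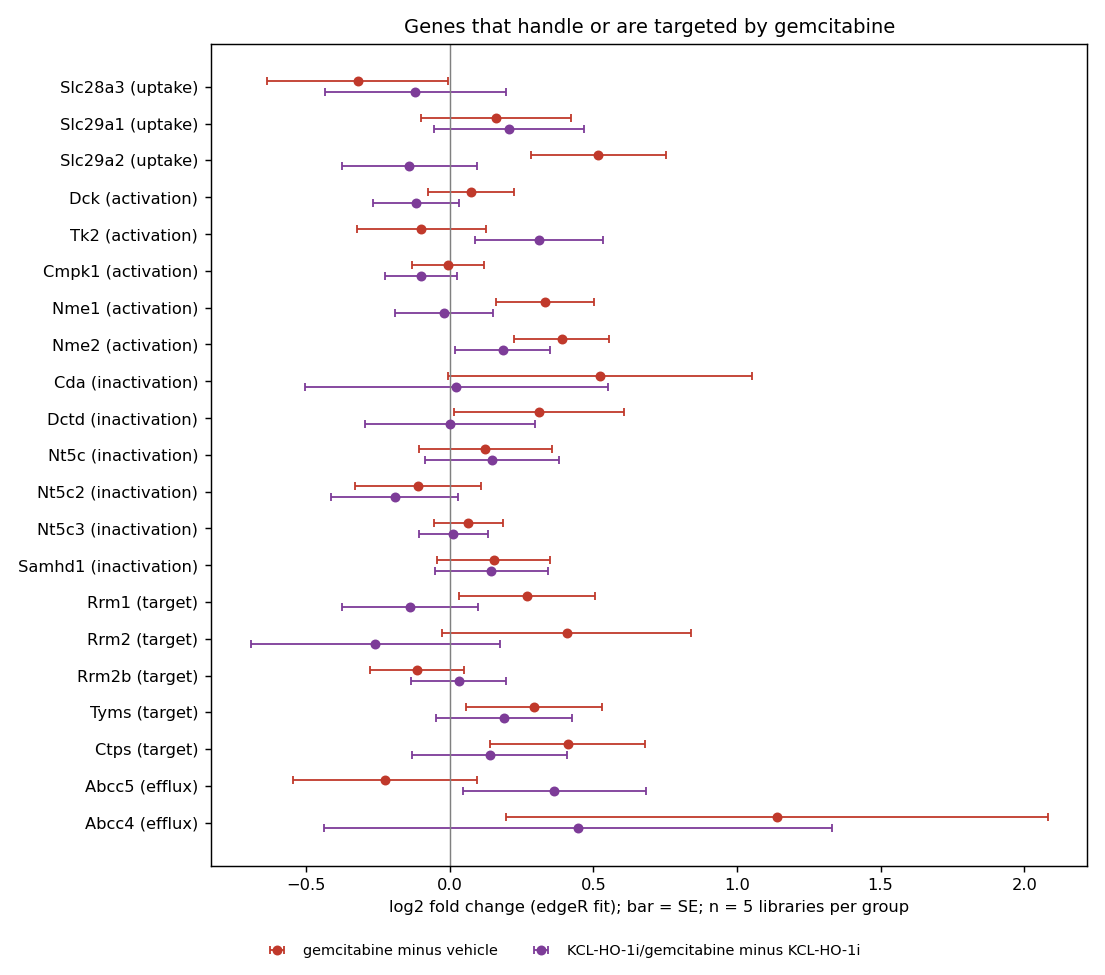
Log2 fold change of the 21 tested gemcitabine genes, ordered by role, with vehicle background in red and KCL-HO-1i background in purple; bars are standard errors (n = 5 libraries per group). Slc29a2 (0.52) and Nme2 (0.39) are the 2 genes with an unadjusted p under 0.05 with vehicle background, and Abcc4 has the widest error.

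Target genes of p53, the factor that DNA damage stabilises, lay on both sides of 0. Of 27 such genes, 14 were above and 13 below 0, none had an unadjusted p under 0.05, and the median log2 fold change was 0.01. With KCL-HO-1i in both groups, 23 of the 27 were above 0 with a median of 0.26, and 2 were higher at an unadjusted p under 0.05 (1.2% of all genes were), Cdkn1a and Ccng1. Cdkn1a had 798, 560, 514, 659 and 749 reads with KCL-HO-1i and 712, 538, 3084, 1611 and 820 with KCL-HO-1i/gemcitabine, most in replicates 3 and 4. The list's mean log2 CPM, less its vehicle mean, was -0.294, -0.393, -0.225, -0.0438 and -0.273 with KCL-HO-1i. With KCL-HO-1i/gemcitabine it was -0.297, -0.0829, 0.344, 0.00444 and -0.185. The difference between backgrounds had an unadjusted p under 0.05 for 1 of the 27 (1.34% of all genes). Against vehicle, Cdkn1a, which encodes the cell cycle inhibitor p21, was at 69.9, 85.2, 120, 94.7 and 148 CPM with vehicle and at 77.8, 81.2, 149, 82.3 and 63.6 CPM with gemcitabine (exact permutation p = 0.468, two-sided). Mdm2, the ubiquitin ligase that p53 induces against itself, was at 61.5 ± 7.13 CPM with vehicle and at 58.6 ± 4.85 CPM with gemcitabine (SD, n = 5; exact permutation p = 0.516). Its groups overlapped throughout. Among 31 checkpoint and repair genes 1 was higher at an unadjusted p under 0.05, near the share of all genes (2.05%). It was Tipin, which travels with the replication fork (log2 fold change 0.42, unadjusted p = 0.0376 in edgeR's test).

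Genes of growth and DNA synthesis lay higher in gemcitabine 1 and 3 than in the other libraries. All 34 genes of DNA replication and S phase had a positive log2 fold change, with a median of 0.33, and 3 of them had an unadjusted p under 0.05 (2.05% of all genes were higher by it). Ccne1, the cyclin that starts S phase, was at 8.55, 13.7, 14.6, 7.97 and 16.4 CPM with vehicle and at 30.3, 14, 51.4, 10.8 and 16.3 CPM with gemcitabine (log2 fold change 1.00 ± 0.42, SE; unadjusted p = 0.0242 in edgeR's test). Pcna, the sliding clamp of the polymerases, and Rpa1, which coats single-stranded DNA, had log2 fold changes of 0.37 and 0.32. All 30 mitosis genes were above 0 as well, with a median of 0.39, but 0 had an unadjusted p under 0.05. Mki67, a marker of dividing cells, was at 146, 150, 251, 142 and 200 CPM with vehicle and at 264, 153, 477, 146 and 108 CPM with gemcitabine (exact permutation p = 0.651, two-sided). So 2 of the gemcitabine libraries were the highest of the 10 and 1 was the lowest.

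Nucleotide synthesis followed the same libraries. Of 25 genes, 24 were above 0, with a median of 0.23, and 5 had an unadjusted p under 0.05 and were higher (2.05% of all genes were): Impdh2, Prps1, Atic, Gart and Aprt, all of purine synthesis or salvage. Impdh2, which commits purines to guanine nucleotides, was at 157, 138, 153, 133 and 133 CPM with vehicle and at 233, 170, 253, 143 and 156 CPM with gemcitabine (log2 fold change 0.42 ± 0.13, SE, n = 5 per group; unadjusted p = 0.0037 in edgeR's test). Of 19 genes of ribosome biogenesis, 19 were above 0 and 7 had an unadjusted p under 0.05 (2.05% of all genes were higher by it). Dkc1, the pseudouridine synthase of ribosomal RNA, was at 77.3, 66.6, 83.4, 59.7 and 75.3 CPM with vehicle and at 113, 82.6, 144, 57.9 and 86.7 CPM with gemcitabine. Gnl3 and Npm1, both nucleolar proteins, had log2 fold changes of 0.49 and 0.45.

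These counts moved when single libraries were left out. Without gemcitabine 3, 0 of 34 S phase genes, 1 of 25 nucleotide genes and 0 of 19 ribosome genes had an unadjusted p under 0.05 (1.18% of all genes were higher by it in that fit). Without gemcitabine 4, the library with the lowest mitosis level, the counts were 12, 8 and 12 (5.04% of all genes), and 1325 genes in all had an unadjusted p under 0.05 against 523. Without gemcitabine 1 they were 1, 1 and 1 (1.46%), and without vehicle 4 they were 0, 3 and 1 (1.83%). Without vehicle 3 and gemcitabine 5 they were 4, 10 and 12 (3.35%). With mouse code in the fit they were 0, 1 and 0 (0.6%), and the medians of S phase and mitosis genes turned to -0.26 and -0.90. Among the vehicle libraries, that fit rests on vehicle 1 alone. In the KCL-HO-1i background the medians were -0.05 for S phase genes and -0.15 for mitosis genes.

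**Figure D4:**
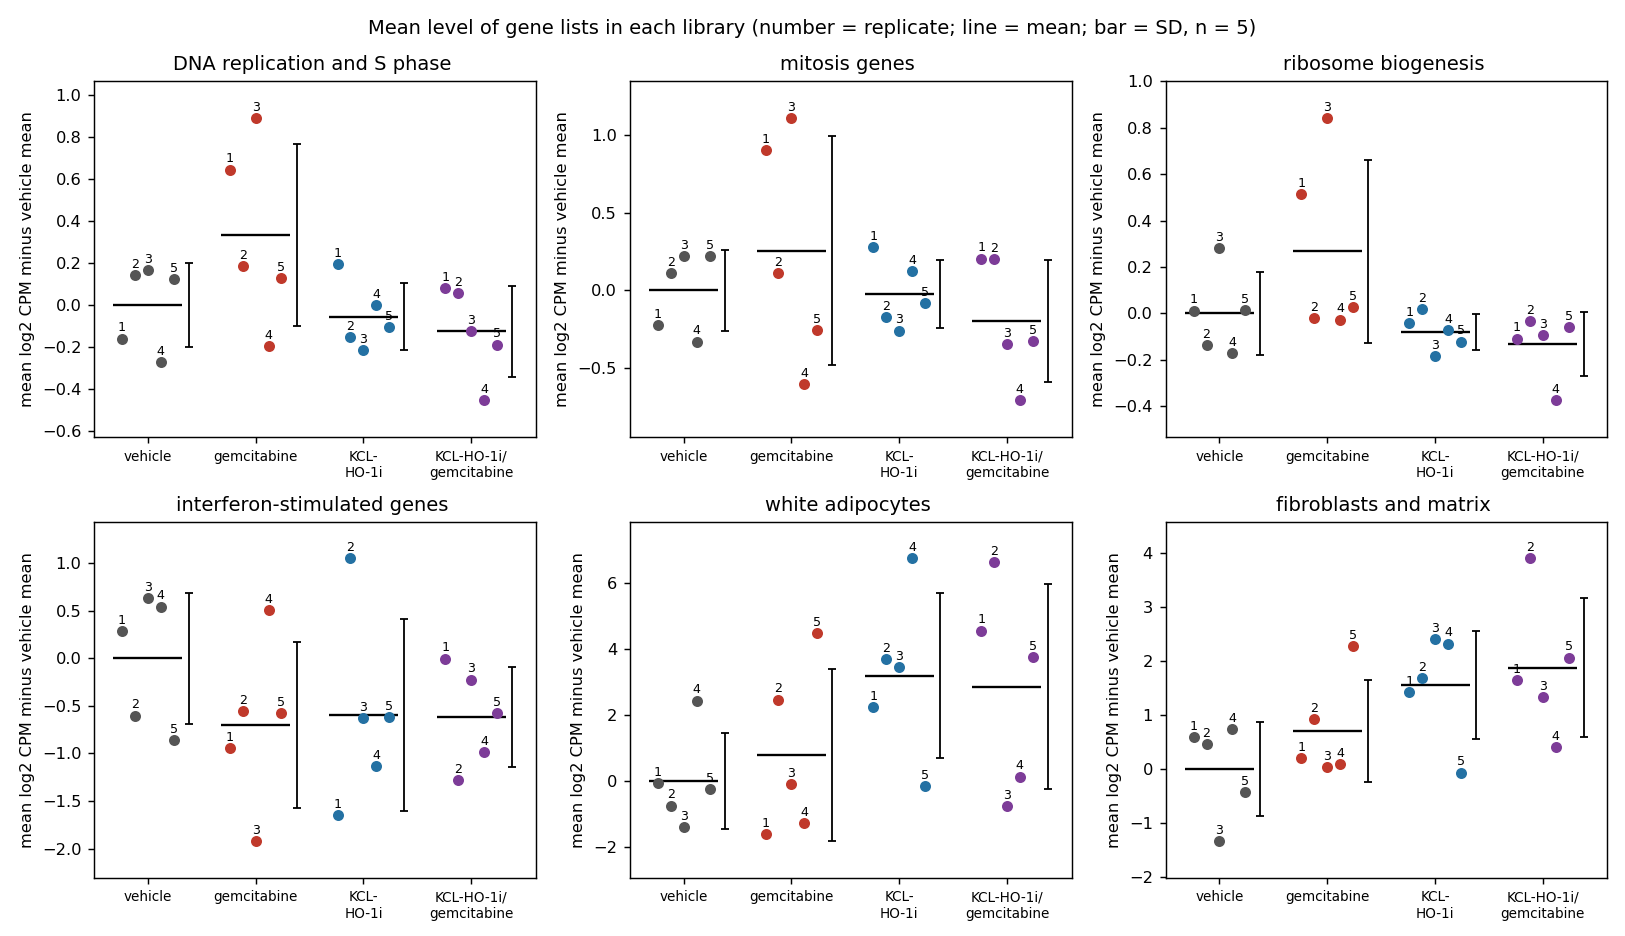
Mean log2 CPM of 6 gene lists in each library, less the vehicle mean of that list; numbers are replicates, lines are means and bars are SDs (n = 5). Gemcitabine 1 and 3 are the highest libraries for S phase genes (0.65 and 0.89), mitosis genes and ribosome biogenesis, gemcitabine 3 is the lowest for interferon-stimulated genes (-1.92), and gemcitabine 5 is the highest of the 10 for adipocyte genes (4.48) and matrix genes (2.28).

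Interferon-stimulated genes, which cells switch on after type I interferon or when they sense stray nucleic acid, lay lower with gemcitabine, within wide spread. All 31 tested members had a negative log2 fold change, with a median of -0.60, yet 0 had an unadjusted p under 0.05. Isg15, a ubiquitin-like modifier, was at 73, 35.3, 60.5, 75.3 and 22.6 CPM with vehicle and at 17.5, 27.2, 8.15, 53.8 and 22.6 CPM with gemcitabine. Vehicle 2 and 5 lay with the low libraries and gemcitabine 4 with the high ones. Without gemcitabine 4, 6 of the 31 had an unadjusted p under 0.05 and were lower, in a fit where the share of all genes so called was 4.56% against 1.78% with all libraries. Summed over the list, vehicle libraries held 714 to 1750 CPM and gemcitabine libraries 464 to 1560 CPM. Genes of MHC class I had a median of -0.17 and 0 of 26 had an unadjusted p under 0.05, and genes of nucleic acid sensing and immunogenic cell death had a median of 0.15 with 0 of 19.

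T cell transcripts were sparse. Of 28 genes of T and cytotoxic cells, 14 were tested, 2 of them were higher and 1 lower at an unadjusted p under 0.05 (2.05% and 1.78% of all genes), and the summed level was 8.35 to 20.5 CPM with vehicle and 12.9 to 46.6 CPM with gemcitabine. Cd8a, the co-receptor of cytotoxic T cells, was at 0.564, 0.363, 0.616, 1.53 and 0.967 CPM with vehicle and at 0.735, 0.751, 3.11, 1.63 and 0.795 CPM with gemcitabine (exact permutation p = 0.246, two-sided; adjusted over 10 genes 0.6). Lck, the kinase next to the T cell receptor, was at 2.54, 2.33, 1.85, 2.71 and 1.64 CPM with vehicle and at 5.14, 3.51, 12, 1.86 and 2.88 CPM with gemcitabine (log2 fold change 1.19 ± 0.45, SE; unadjusted p = 0.0128 in edgeR's test). For both, gemcitabine 3 was the highest library, and without it 0 of the list's genes had an unadjusted p under 0.05. Gzma, a granzyme, had 1.61 and 1.12 CPM in vehicle 4 and 5 and at most 0.233 CPM in every other library of the 10.

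The macrophage markers had a median of 0.14 and 0 of 24 had an unadjusted p under 0.05. Hmox1, which encodes HO-1, was at 32.9, 51.3, 84.7, 59.9 and 18.4 CPM with vehicle and at 29.8, 26.6, 50.5, 19.3 and 60.3 CPM with gemcitabine (exact permutation p = 0.46, two-sided). Lyve1, which marks lymphatic vessels and a set of perivascular macrophages, was at 1.78, 0.0727, 0.352, 4.24 and 0.818 CPM with vehicle and at 0.98, 2.42, 0.824, 0.698 and 15 CPM with gemcitabine (exact permutation p = 0.421). Of 12 tested genes of LYVE-1 perivascular macrophages 0 had an unadjusted p under 0.05, and Il10 was not tested. The chemokines Cxcl12, which draws CXCR4-bearing leukocytes, and Cxcl14 were at 38.5 ± 21.3 and 21.6 ± 16.1 CPM with gemcitabine, against 18.1 ± 9.42 and 11.3 ± 7.46 CPM with vehicle (SD, n = 5; exact permutation p = 0.135 and 0.206).

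Stromal genes rested on a few libraries. All 18 white adipocyte genes had a positive log2 fold change, with a median of 1.82, and their summed level was 185 to 820 CPM in gemcitabine 1 to 4, 3010 CPM in gemcitabine 5 and 194 to 836 CPM with vehicle. Lep, the hormone of fat cells, was at 23.3 CPM in gemcitabine 5 and at most 1.78 CPM in the other 9 libraries. Without vehicle 4, 10 of the 18 were higher at an unadjusted p under 0.05 (1.83% of all genes in that fit) and the median was 4.11. Without gemcitabine 5 the median of the list was 0.05 and the log2 fold change of Lep turned from 3.50 to -0.41. The summed matrix genes were likewise at 5910 CPM in gemcitabine 5 and at 476 to 1860 CPM in the others, with 27 of 28 above 0 and 0 at an unadjusted p under 0.05. Skeletal muscle genes reached 332 CPM in gemcitabine 2 and at most 71.5 CPM in the other 9 libraries. Gemcitabine 5 was thus the library with the most adipocyte, matrix, blood vessel (333 CPM) and erythroid transcripts, and whether these have to do with one another was not tested.

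Genes of lymphatic vessels were higher in some gemcitabine libraries. Ccl21a, the chemokine by which lymphatic endothelium guides dendritic cells and T cells, had 0 reads in all 5 vehicle libraries and 10, 2, 81, 0 and 58 reads in gemcitabine 1 to 5 (unadjusted p = 0.00364 in edgeR's test). At 0 reads the limit of 3 counts is 0.218 to 0.282 CPM per vehicle library. Mmrn1, a matrix protein of lymphatic vessels, had 2 reads in vehicle 3 and 0 in the other 4, against 2, 2, 11, 0 and 34 reads with gemcitabine (unadjusted p = 0.00567 in edgeR's test). Both were highest in gemcitabine 3 and 5. Ccl21a has near copies in the mouse genome, so its reads may be shared with them. With KCL-HO-1i in both groups, Ccl21a was present in 4 of 5 libraries without gemcitabine (up to 1.32 CPM) and in 2 of 5 with it (3.41 and 12.8 CPM).

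Luminal genes had a median log2 fold change of -0.15, and 1 of 19 was lower at an unadjusted p under 0.05 (1.78% of all genes were), Pgr, the progesterone receptor. It was at 1.69, 2.76, 0, 3.73 and 3.65 CPM with vehicle and at 0.735, 0.668, 0.275, 0.621 and 1.49 CPM with gemcitabine. Vehicle 3 thus lay below every gemcitabine library, and all these levels rest on few reads. Of 20 genes of the integrated and endoplasmic reticulum stress response 2 were lower (1.78% of all genes were), Herpud1 and Chac1, with log2 fold changes of -0.70 and -0.86 (unadjusted p = 0.0235 and 0.0297 in edgeR's test).

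**Figure D5:**
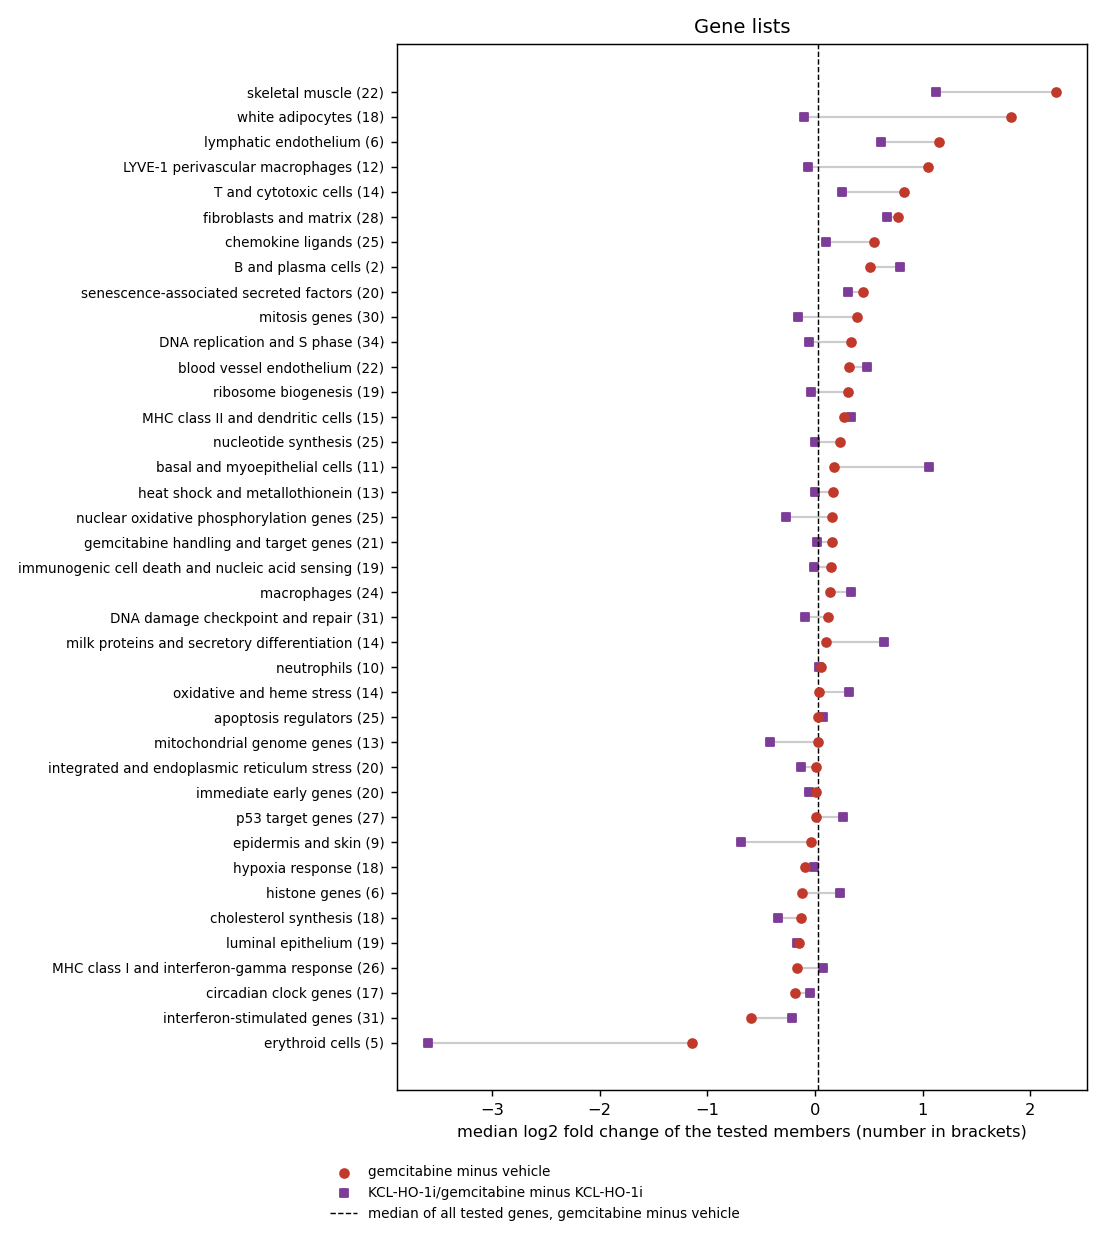
Median log2 fold change of the tested members of each of the 39 gene lists, for gemcitabine against vehicle (red circles) and for gemcitabine with KCL-HO-1i against KCL-HO-1i alone (purple squares); the dashed line is the median of all tested genes (0.03). Erythroid genes lie lowest in both comparisons (-1.14 and -3.59), and muscle (2.24) and adipocyte genes (1.82) lie highest against vehicle.

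Of the genes whose libraries did not overlap, the 12 higher and 12 lower with the smallest p are described here, with median log2 fold changes of 0.32 and -0.37. Trub1, a pseudouridine synthase of transfer RNA, was at 22.9, 24.3, 22.8, 23.4 and 25.3 CPM with vehicle and at 28.8, 27.3, 40.7, 27.7 and 27.7 CPM with gemcitabine. Rfx2, a transcription factor of ciliated cells, was at 3.43 to 4.04 CPM with vehicle and at 4.49 to 6.56 CPM with gemcitabine. Ube2h, a ubiquitin-conjugating enzyme that is also known from maturing red cells, was at 199, 181, 208, 197 and 235 CPM with vehicle and at 157, 172, 135, 162 and 172 CPM with gemcitabine (log2 fold change -0.35 ± 0.09, SE, n = 5 per group; unadjusted p = 0.000409 in edgeR's test). Capn1, a calcium-dependent protease, was at 93.1, 84.8, 102, 92.3 and 94.4 CPM with vehicle and at 77.8, 83.6, 74.9, 79.8 and 75.9 CPM with gemcitabine. The other 10 higher genes of the 12 with the smallest p were 9130401M01Rik, Nif3l1, Trim37, Mindy3, Enoph1, Smpd4, Pno1, Cnih1, Xrcc6 and Fancl, and the other lower ones included Wbp1l, Rhou, Gtpbp2, Rmnd5a, Calcoco1, Tsga10, Ajm1, H2-Q1 and Arid5a. Xrcc6, the Ku70 subunit of DNA end joining, and Fancl, the ubiquitin ligase of the Fanconi pathway, act in DNA repair. The absolute log2 fold changes of these 24 genes ran from 0.22 to 1.02.

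The smallest p-value of all genes belonged to Bicdl1, an adaptor of vesicle transport, whose libraries overlapped. It was at 20.7, 18.8, 8.79, 16.2 and 27.1 CPM with vehicle and at 8.08, 11.2, 5.31, 8.77 and 10.8 CPM with gemcitabine. Its log2 fold change was -1.05 ± 0.23 (SE, n = 5 per group) with an unadjusted p of 0.000108 and an adjusted p of 0.941 in edgeR's quasi-likelihood test. Without vehicle 3 the log2 fold change was -1.23 and the adjusted p 0.0394 (edgeR). In the KCL-HO-1i background its log2 fold change was -0.41 (unadjusted p = 0.0829).

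Few of these differences recurred with KCL-HO-1i. Of the 12 higher and 12 lower genes, 7 and 8 had the same sign there, 0 passed an unadjusted p of 0.05 in the same direction, and Rfx2 passed it in the opposite one (log2 fold change -0.43, unadjusted p = 0.0314 in edgeR's test). The median log2 fold change with KCL-HO-1i was 0.03 for the higher set and -0.04 for the lower set. The test of the difference between backgrounds had an unadjusted p under 0.05 for 4 of the higher and 5 of the lower genes, against 1.34% of all genes, but the first comparison enters that test and was also the one that chose them. Over all genes, 0 passed the adjusted test with KCL-HO-1i and 364 had an unadjusted p under 0.05 (164 higher and 200 lower), and 0 passed it for the difference between backgrounds, where 183 had an unadjusted p under 0.05.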

How the data were processed

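Bulk RNA sequencing of total RNA from 30 mammary tumours, 1 mouse per library, was analysed from the table of estimated counts per gene. Per the submitters' processing notes, the authors used FastQC 0.11.9, STAR 2.7.9a and Salmon 1.9.0 on the mm10 build. The authors deposited expected counts (38% of the values are not whole). TPM is named in the study's methods, but the library totals are unequal. The library kit keeps strand, and the counting setting was not given in the sources used here.

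The expected counts were rounded, and 13663 of 21841 genes passed edgeR's filterByExpr (minimum count 10). Genes that failed it carried 0.0564% of counts. All 30 libraries entered 1 fit (edgeR 4.0.16, R 4.3.3, TMM scaling, robust quasi-likelihood test), with Benjamini-Hochberg adjustment over all tested genes. The script was tested on simulated data. Single levels of 10 genes were compared by the two-sided exact permutation test of log2(CPM + 0.5). Alternatives used DESeq2 1.42.0 and limma 3.58.1, other scaling, filters, samples and covariates. The floor of 3 counts covers counting error only, whereas the SDs and SEs include the spread between animals.

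The members and gene lists were chosen with earlier results of these data known. Genes were named by rule: the gemcitabine genes and 10 fixed genes whatever their values, the 12 higher and 12 lower genes with the smallest p among those whose libraries did not overlap, and the 3 members of each list with the smallest p. Any further gene was picked with its values in view. Replicate numbers did not pair the samples (correlations of deviations from -0.209 to 0.48). No 2 libraries of a group agreed within sampling noise in the 20 pairs examined (lowest chi-square per degree of freedom 19.9). Tumours were collected on separate days, which the labels do not give per sample. A few named items are not reported here.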

Additional observations from a re-analysis of the deposited data

Results flagged for a closer look

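Of 90 groups of 5 libraries examined over 45 genes and library values, 7 held a library whose gap to its nearest neighbour was a large share of the group's range by Dixon's 95% critical value, a number to be read against the share of about 5% of groups that chance gives. Of these, 4 were globin genes. For genes, gaps and ranges were taken on the log2 scale of the exact permutation tests. Levels are printed in CPM, and the share of the range in CPM can differ, so which libraries are listed depends on that scale. Hba-a1 was lowest in vehicle replicate 5, at 47.75 CPM, where the gap was 0.729 of the range on the log2 scale. Hbb-bt was lowest in the same library, at 3.05 CPM. Hbb-bs and Hbb-bt were highest in gemcitabine replicate 5, at 262 and 13.01 CPM, with gaps of 0.815 and 0.913 of the range. The same library was lowest for Mdm2 among the gemcitabine libraries, at 50.36 CPM. Trub1 was highest in gemcitabine replicate 3, at 40.74 CPM. Mmrn1 was highest in vehicle replicate 3, at 0.1759 CPM, which is 2 reads beside 0 in the other 4 libraries.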

How the results depend on the processing

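The labels tie no mouse code to a batch, the 5 libraries per group limit the precision, and genes of a few reads rest on single libraries. No gene passed the adjusted test under RLE scaling, DESeq2, limma-voom, other filters, the replicate block or a fit to the compared groups alone. With mouse code as a covariate 1 gene passed, Sik1 (log2 fold change -4.42, edgeR adjusted p = 0.0184), and leaving out single libraries gave 0 to 3. All values with mouse code as a covariate rest on vehicle 1 alone among the vehicle libraries, which limits them. Genes at an unadjusted p under 0.05 numbered 790 without a filter, 205 with mouse code, 311 in the compared groups alone, and 359 to 1325 with single libraries left out. At the limits of the study, higher genes numbered 152 in DESeq2, 291 without a filter, 38 at a mean of 50 counts, 149 without vehicle 3 and gemcitabine 5 (chosen after seeing the data) and 72 to 233 without single libraries (156 without vehicle 4). Lower genes numbered 111 in limma-voom, 114 without a filter, 32 at a mean of 50 counts, 123 with mouse code and 58 to 174 without single libraries. The highest of each range came without gemcitabine 4. With the replicate block, 508 genes had an unadjusted p under 0.05. The numbers do not pair the samples.

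In the KCL-HO-1i background the unadjusted count was 1139 in limma-voom, 595 without a filter, 758 with mouse code and 229 to 709 without single libraries (KCL-HO-1i/gemcitabine 3 and 2). For the difference between backgrounds it was 452, 403 and 319 in those settings, 466 without vehicle 3 and gemcitabine 5, and 126 to 505 without single libraries (364 without vehicle 3, 410 without gemcitabine 4, 303 without KCL-HO-1i 5, 505 without KCL-HO-1i/gemcitabine 2). With mouse code the log2 fold change turned to 0.25 for Calcoco1, 0.0182 for Cdkn1b, -0.37 for Gart, 0.0218 for Gtpbp2, 0.43 for H2-Q1, 0.0616 for Herpud1, -0.27 for Hspe1, -4.76 for Lep, -0.13 for Nme2, -0.17 for Prps1, -0.12 for Rfx2 and -0.11 for Smpd4. Lep also ranged from -0.41 without gemcitabine 5 to 5.69 without vehicle 4, and was at -0.72 without vehicle 3 and gemcitabine 5. Of 1259 recomputed values for the 67 named genes with an unadjusted p under 0.05, 964 kept it. The cause of these changes was not tested.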

Other observations

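Genes of energy metabolism and of the remaining stress pathways lay near their vehicle levels. The 25 nuclear genes of oxidative phosphorylation all had a positive log2 fold change, with a median of 0.16 and 0 at an unadjusted p under 0.05, and the 13 genes of the mitochondrial genome had a median of 0.03. In the KCL-HO-1i background these medians were -0.27 and -0.42. The median was 0.04 for 14 genes of oxidative and heme stress, -0.09 for 18 genes of the hypoxia response and -0.13 for 18 genes of cholesterol synthesis, each with 0 genes at an unadjusted p under 0.05. Of 13 heat shock and metallothionein genes 1 was higher at an unadjusted p under 0.05 (2.05% of all genes were), Hspe1, a mitochondrial chaperonin, with a log2 fold change of 0.53. Of 20 immediate early genes 1 was lower by that threshold (1.78% of all genes were), Nr4a2, an orphan nuclear receptor, with a log2 fold change of -0.87.

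Genes of milk proteins and secretory differentiation summed to 14800 to 27500 CPM with vehicle and to 9810 to 30700 CPM with gemcitabine. The casein gene Csn2 varied far more widely than this sum. It had 3091, 1386, 15470, 561 and 1587 reads in vehicle 1 to 5. In gemcitabine 1 to 5 it had 65, 53, 2390, 2105 and 45338 reads. Genes of epidermis reached 575 CPM in vehicle 3 and 614 CPM in gemcitabine 3, against at most 268 CPM in the other 8 libraries. B and plasma cell transcripts reached 29 CPM in gemcitabine 3 and at most 3.38 CPM in the other 9 libraries. Basal and myoepithelial genes had a median log2 fold change of 0.18 and 0 of 11 had an unadjusted p under 0.05. Genes of MHC class II and dendritic cells had 15 of 15 above 0, with a median of 0.27 and 0 at an unadjusted p under 0.05.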
